A study of Mus musculus with 2 samples.

Results

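Hedgehog signalling between the epithelium and the connective tissue of the mouse bladder was described from 9 genes, taken by symbol from the 31054 features of 2 single-cell RNA libraries. They are the ligand Shh, its receptor Ptch1, the co-receptors Gas1 and Boc, the transducer Smo, the transcription factors Gli1, Gli2 and Gli3, and the ligand-binding antagonist Hhip. All 9 are protein-coding genes. On GRCm38, Shh lies at chr5:28456815-28467256, Ptch1 at chr13:63508328-63573598, Smo at chr6:29735503-29761365 and Gli1 at chr10:127329882-127341974. Gli2 lies at chr1:118834132-119053619, Gli3 at chr13:15463235-15730026, Hhip at chr8:79965851-80058006, Gas1 at chr13:60174405-60177365 and Boc at chr16:44485049-44558897. Smo and Gli3 are on the plus strand and the other 7 on the minus strand.

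A Hedgehog ligand made by an epithelium reaches cells of the adjoining stroma and binds Ptch1, a membrane protein that holds Smo inactive until the ligand arrives. Active Smo signals through the primary cilium to the Gli factors, of which Gli2 and Gli3 are processed into activators or repressors. Gli1, Ptch1 and Hhip are themselves transcribed in responding cells, and both Ptch1 and Hhip bind the ligand and limit its reach. Gas1 and Boc help the ligand to bind Ptch1, and their transcription is known to be lowered by the pathway in several embryonic tissues. In the adult bladder, the urothelium is a known source of Shh and the stroma beneath it a known place of response.

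Both libraries came from 1 bladder of a male mouse aged 25 months with the genotype p16-CreERT2/R26-LSL-tdTomato, in which tamoxifen leaves a lasting red mark in cells that use the p16 promoter during the treatment. Tamoxifen was injected intraperitoneally on 5 consecutive days and the bladder was taken 2 weeks later. After collagenase digestion, living cells without the leukocyte protein CD45 were sorted into a Tomato-negative and a Tomato-positive library, each prepared with 3′ chemistry. Each group is 1 library from the same animal, so no test between the groups was possible, and every interval below is a 95% interval of counting error alone. The series describes the sorted cells as stromal, but the labels name no gate against epithelium and the files hold urothelial cells in quantity.

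The Tomato-negative library had 13551 barcodes and the Tomato-positive library 2783, with a median of 10673 and 5774 UMIs (unique molecular identifiers, 1 per captured transcript). After filters on depth, mitochondrial share and predicted doublets, 9905 and 1883 cells were used. The tdTomato transcript stood at 35.5 and 1238 CPM (UMIs of the gene per 1000000 UMIs of all genes) in these cells, so the libraries differed as labelled, although 31.4% of Tomato-negative cells had at least 1 tdTomato UMI. In all, 966 barcodes occurred in both libraries, and where leaving out such cells moved the interval of a ratio given below onto or off 1, or a level by over 1.5 times, both values are given. Clusters were made without the 9 genes, the other Hedgehog genes, tdTomato and Cdkn2a, and were named from marker lists. They gave 458 basal urothelial-like cells in the Tomato-negative and 125 in the Tomato-positive library, 1485 and 418 superficial urothelial-like cells, and 5362 and 815 fibroblast-like cells. The other classes of at least 50 cells in both libraries were mesothelial-like, endothelial-like and lymphatic endothelial-like cells. The urothelial layers separated softly: the 6 basal markers summed to 4572 CPM in basal and 3667 CPM in superficial cells of the Tomato-negative library. The superficial markers summed to 1542 and 2856 CPM there, and Krt17 among the basal markers was at 0.

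Shh was a urothelial transcript in both libraries. In the Tomato-negative library, basal cells held 247 CPM of Shh (interval 239 to 255) and superficial cells 227 CPM (223 to 231). In the Tomato-positive library they held 211 CPM (197 to 225) and 222 CPM (215 to 230). Together the 2 urothelial classes contained nearly all Shh UMIs of each library: basal cells had 23.6% and superficial cells 73.7% of the 17038 Shh UMIs in Tomato-negative cells, and 19.6% and 78.1% of the 4446 in Tomato-positive cells. At least 1 Shh UMI was found in 98.0% of Tomato-negative basal cells and in 97.6% of Tomato-positive ones. These shares reflect median depths of 32586 and 31085 UMIs; with each cell thinned to 2000 UMIs they were 38.7% and 33.1%.

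Shh differed little between the basal and superficial classes, which overlap in markers. Most superficial cells, 1287 and 376 in the 2 libraries, formed a cluster with the basal marker Krt15 among its leading genes. The basal cluster was led by Gsdmc2, a marker on the superficial list. The superficial to basal ratio was 0.921 (0.889 to 0.955) in the Tomato-negative library and 1.05 (0.978 to 1.14) in the Tomato-positive library. In the latter, the stricter cell filter, the cells with predicted doublets kept and the marker gate each placed superficial cells below basal cells, at log2 differences of -0.093, -0.095 and -0.21. Within the superficial class, the cluster marked by Krt20, the keratin of fully mature umbrella cells, had 220 CPM of Shh in the Tomato-negative and 168 CPM in the Tomato-positive library. It held 198 and 42 cells, 55 and 19 of them with a shared barcode, at median depths of 6957.5 and 29286 UMIs. Its Shh level without shared barcodes was not computed. Between the libraries, Shh in Tomato-positive basal cells was 0.855 times the Tomato-negative level (0.793 to 0.920), and in superficial cells 0.978 times (0.941 to 1.015). Without shared barcodes the latter was 0.903 times (0.864 to 0.942).

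Outside the urothelium Shh was scarce, and the part of free RNA in it was not tested. Fibroblast-like cells held 3.40 CPM in the Tomato-negative and 1.93 CPM in the Tomato-positive library, and mesothelial-like cells 3.03 and 2.25 CPM. Thinned to 2000 UMIs, 0.776% and 0.409% of fibroblast-like cells had a Shh UMI. Endothelial-like cells were higher, at 18.6 and 40.5 CPM, or 18.7 and 22.3 CPM without shared barcodes. Of their Shh UMIs, 76.8% and 97.2% lay in 12 and 10 cells that each carried at least 50 UMIs of general urothelial markers, and without those cells the levels were 4.76 and 1.40 CPM. The other ligands were scarce. Dhh, the Hedgehog ligand of peripheral nerve, was highest in the 49 Schwann-like cells of the Tomato-negative library at 17.2 CPM, from 5 UMIs, and stood at 7.88 CPM in endothelial-like cells. Ihh had 1 UMI in Tomato-negative basal cells and 2 UMIs in fibroblast-like cells.

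**Figure D1:**
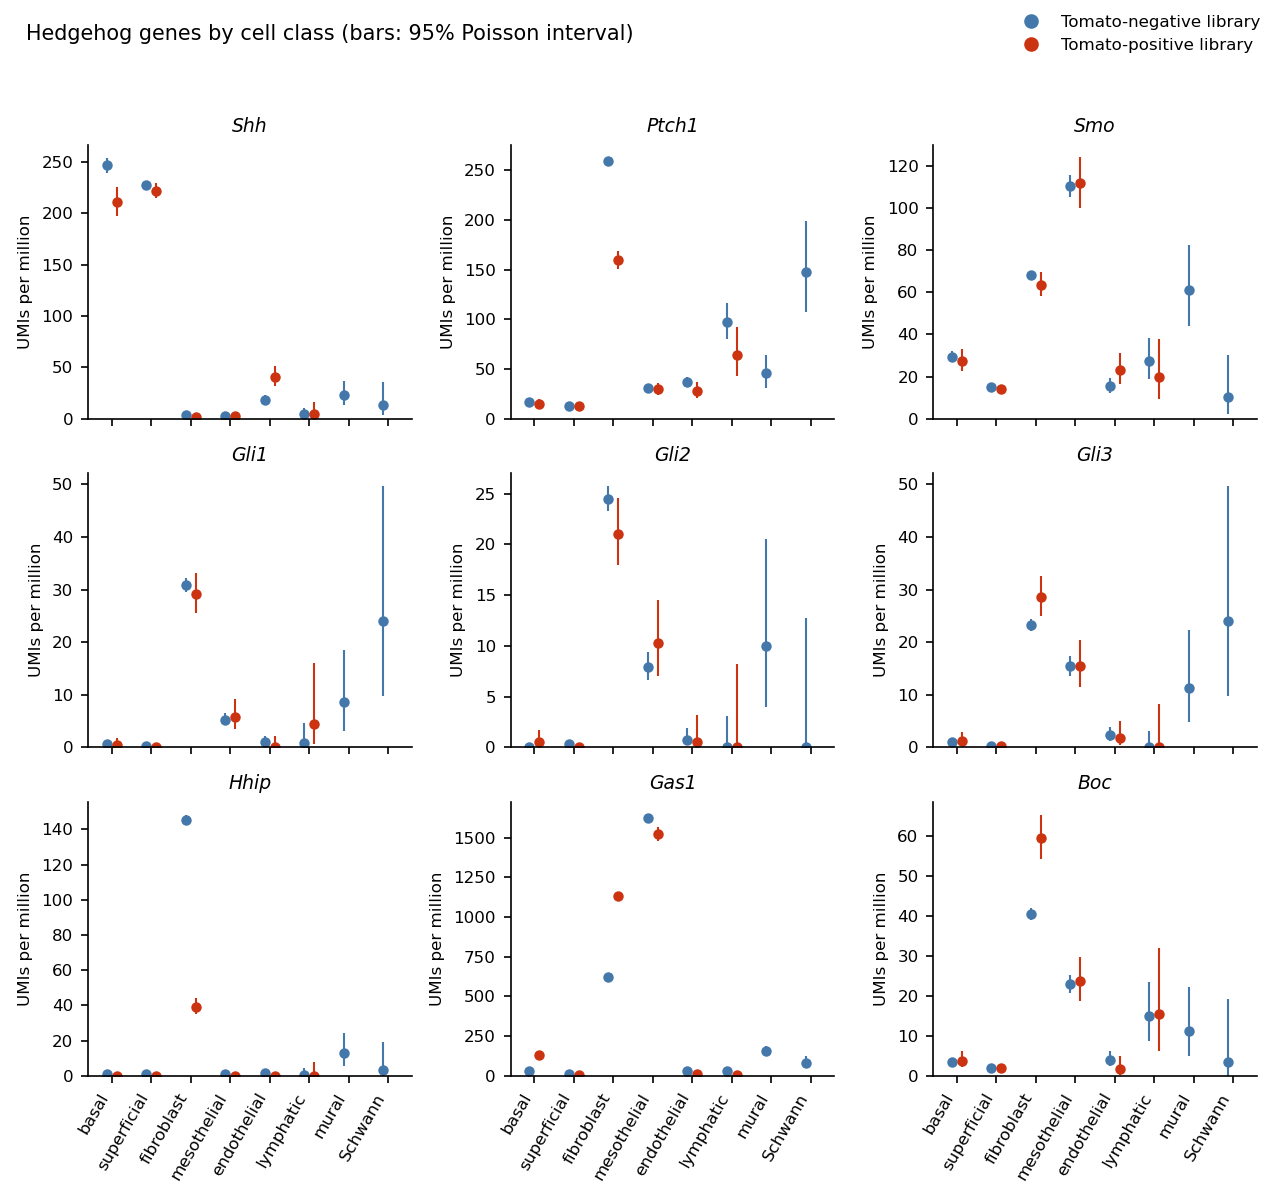
Level of each of the 9 genes, in CPM, by cell class (horizontal axis) in the Tomato-negative and Tomato-positive library; points are summed levels and bars are 95% Poisson intervals of counting error. Shh is high in the basal and superficial urothelial-like classes (211 to 247 CPM), whereas Ptch1, Gli1 and Hhip are highest in fibroblast-like cells.

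The receptor and target genes had the opposite distribution. Fibroblast-like cells held 259 CPM of Ptch1 in the Tomato-negative library against 16.8 CPM in basal cells, a ratio of 15.4 (13.7 to 17.5). The Tomato-positive ratio was 10.5 (8.15 to 13.7). In fibroblast-like over basal cells of each library, all 9 genes passed 1.5-fold, 8 higher and 1, Shh, lower; of all genes measured there, 32.9% were that much higher and 19.1% lower in the Tomato-negative library, and 34.3% and 19.9% in the Tomato-positive one. Fibroblast-like cells contained 89.1% of Ptch1, 92.8% of Gli1 and 97.6% of Hhip UMIs in the Tomato-negative library, from 39.6% of all UMIs. In the Tomato-positive library they contained 73.9%, 91.1% and 95.3%, from 23.4% of all UMIs.

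Urothelial cells nevertheless carried low levels of the upper part of the pathway. Ptch1 stood at 16.8 and 15.2 CPM in basal cells and at 12.6 and 12.3 CPM in superficial cells of the 2 libraries. Smo was 29.4 and 27.3 CPM in basal and 14.9 and 14.1 CPM in superficial cells, a superficial to basal ratio of 0.506 (0.452 to 0.568) in the Tomato-negative library. Fibroblast-like over basal was 2.32 for Smo, 15.4 for Ptch1 and 125 for Hhip (79.8 to 207) in the Tomato-negative library, and the part of free RNA in the urothelial levels was not tested. The factor and target genes were close to 0 there. Gli1 had 10 UMIs in 458 Tomato-negative basal cells (0.613 CPM), and 0 UMIs in 418 Tomato-positive superficial cells, which allows up to 0.192 CPM at 3 counts.

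Among fibroblast-like cells, 9 clusters differed far more in pathway targets than in Smo. Of these, 6 are called here by the marker list they scored highest on and 3, which no list named, by leading genes; the cluster called Pi16/Scara5 was led by Tmem100, Stmn2 and S100a4, with 0 genes of its list in the top 10. The cluster of Car3, Dkk2 and Tnc had the highest Ptch1 level of the Tomato-negative library, 531 CPM (520 to 543). The Bglap2/Pex5l/Stmn2 cluster followed at 342 CPM, then Apoe/C7/Cxcl12 at 239 and Ednrb/Cck/Chodl at 226 CPM, which did not differ beyond counting error. Cxcl12/Dner/Kcnn3 and Pi16/Scara5 held 177 and 168 CPM, also within counting error of each other. The low end was made up of Gdf10/Myoc/Penk at 30.0 CPM, Dpp4/Sema3e/Smpd3 at 18.4 CPM and the Angptl7 cluster with MHC class II genes at 16.6 CPM, the last of these within counting error of the one before. Ptch1 was detected in 91.8% of Car3-cluster cells and in 21.9% of Gdf10-cluster cells, and after thinning to 2000 UMIs in 53.3% and 6.64%.

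Hhip was far more concentrated. The Car3 cluster held 561 CPM in the Tomato-negative library (549 to 573), and the next cluster, Ednrb/Cck/Chodl, held 49.8 CPM. Cxcl12/Dner/Kcnn3, Bglap2/Pex5l/Stmn2 and Apoe/C7/Cxcl12 held 16.2, 16.1 and 13.4 CPM and did not differ beyond counting error. The remaining 4 clusters lay between 0.995 and 4.65 CPM. The basal, superficial, mesothelial and endothelial classes had 1.01 to 1.5 CPM in that library, so the lowest clusters were near the level of those classes. Of all Hhip UMIs in fibroblast-like cells, 90.7% lay in the Car3 cluster in the Tomato-negative and 87.5% in the Tomato-positive library, from 23.5% and 5.08% of fibroblast UMIs. The Car3 cluster also held 48.0% and 14.8% of Ptch1 UMIs.

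Gli1 fell into a higher and a lower set of clusters, with no peak of the kind seen for Hhip. In the Tomato-negative library 6 clusters stood between 29.3 CPM (Cxcl12/Dner/Kcnn3) and 44.0 CPM (Car3), with no neighbours told apart. Below them came the Gdf10 cluster at 9.65 CPM, the Angptl7 cluster at 3.98 CPM and the Dpp4 cluster at 1.59 CPM. Gli2, the main activator of the family, ran from 31.7 CPM in the Car3 cluster to 6.30 CPM in the Angptl7 cluster. Gli3, the main repressor, ran the other way, from 48.5 CPM in the Dpp4 and 41.5 CPM in the Gdf10 cluster to 18.0 CPM in the Car3 and 14.9 CPM in the Ednrb cluster, with no neighbouring levels told apart. Apart from Shh, which was scarce in every cluster, Smo, the shared transducer, varied least of the 9 genes, from 52.0 to 81.6 CPM.

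The co-receptors did not run together across the clusters. Gas1 reached 2677 CPM in the Gdf10 cluster, 2247 CPM in Cxcl12/Dner/Kcnn3 and 2005 CPM in the Angptl7 cluster, and was 109 and 107 CPM in the Car3 and Ednrb clusters. Boc was highest in Cxcl12/Dner/Kcnn3 at 106 CPM and in the Gdf10 cluster at 99.9 CPM, and lowest in the Dpp4 cluster at 19.98 CPM. In the Angptl7 cluster, which had the lowest Ptch1 level, Boc stood at 30.5 CPM, within counting error of the 32.7 CPM in the Car3 cluster. In Cxcl12/Dner/Kcnn3 both co-receptors stood high together with 177 CPM of Ptch1 and 29.3 CPM of Gli1.

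Across the 9 Tomato-negative cluster levels, the Pearson correlation on the log2 scale of Ptch1 with Gli1 was 0.95, with Gli2 0.92, with Gli3 -0.91, with Gas1 -0.70 and with Boc 0.06. Over the 7 Tomato-positive clusters of at least 50 cells the first 4 were 0.90, 0.91, -0.28 and -0.68. The points share a library and its depth, and the values are a description. The inverse relation of Ptch1 and Gli3 was thus strong over the 9 Tomato-negative clusters and weak over the 7 Tomato-positive ones. The latter leave out the Car3 and Dpp4 clusters, which lay near opposite ends of both genes in the Tomato-negative library. Gli3 in the 7 clusters rests on 12 to 59 UMIs each. Whether the libraries differ in this relation was not tested.

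**Figure D2:**
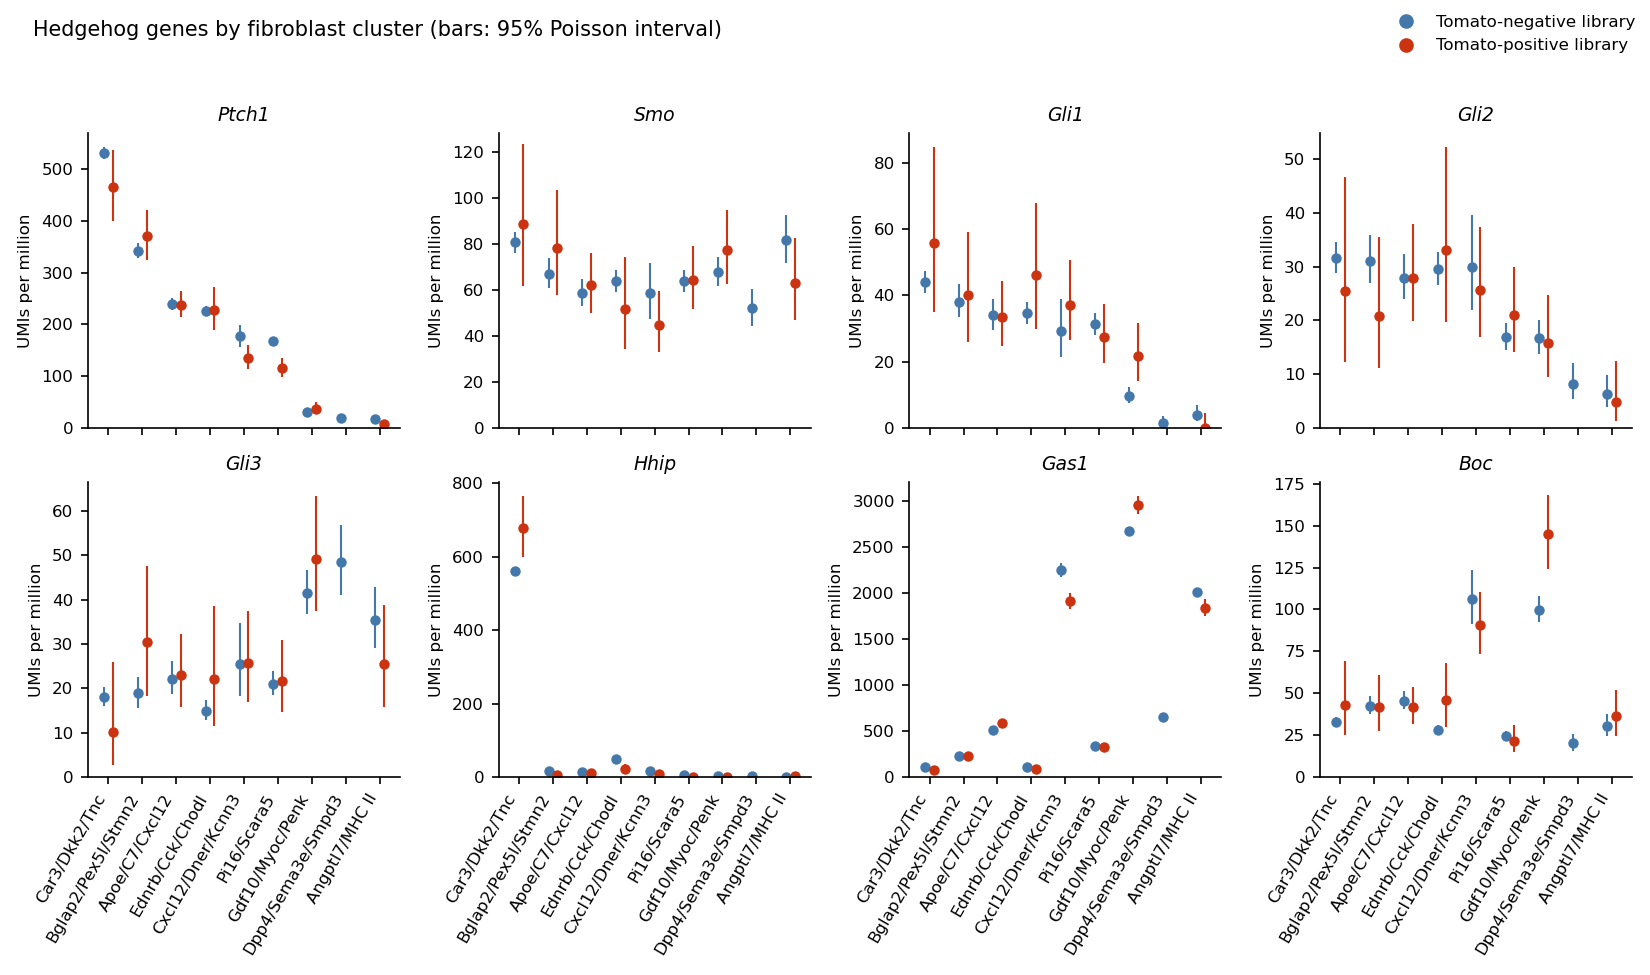
Level of the receptor, transducer, factor and target genes, in CPM, in the fibroblast clusters (horizontal axis) of both libraries, with 95% Poisson intervals. Hhip stands at 561 CPM in the Car3/Dkk2/Tnc cluster and below 50 CPM in every other cluster, while Gas1 is lowest in the Car3 and Ednrb clusters; the Tomato-positive Dpp4 cluster of 14 cells is not drawn.

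Because Ptch1 and Hhip peaked in the same cluster, the 250 bases before their RefSeq starts (GRCm38.p6, minus strand) are printed 5′ to 3′, with the GC box GGGCGG or its reverse complement CCGCCC in capitals. The Ptch1 window, chr13:63565736-63565985, lies inside the longer GENCODE gene span given above; the Hhip window is chr8:80058009-80058258.
Ptch1: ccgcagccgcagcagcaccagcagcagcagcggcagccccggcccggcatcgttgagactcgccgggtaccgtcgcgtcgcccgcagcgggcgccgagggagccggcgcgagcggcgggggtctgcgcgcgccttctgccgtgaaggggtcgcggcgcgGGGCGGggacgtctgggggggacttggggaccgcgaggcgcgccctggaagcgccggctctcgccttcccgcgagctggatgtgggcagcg
Hhip: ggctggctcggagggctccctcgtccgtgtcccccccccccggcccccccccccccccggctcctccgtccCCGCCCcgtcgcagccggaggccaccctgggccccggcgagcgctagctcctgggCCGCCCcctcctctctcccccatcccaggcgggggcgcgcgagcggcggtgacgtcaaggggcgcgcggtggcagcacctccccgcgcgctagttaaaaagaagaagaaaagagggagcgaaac
The windows hold 78.4% and 76% G and C, against a median of 52.4% over 32851 mouse promoters of the same length, and 1 and 2 GC boxes. Promoter entries matched 6 of the 9 genes (Ptch1, Smo, Gli2, Gli3, Hhip and Gas1). A GC box was present in 5 of the 6, against 32.7% of all promoters. The Gli consensus GACCACCCA was searched on both strands and occurred in 0 of the 6 windows and in 74 of the 32851 promoters (0.225%). These letters are not in these windows, which says nothing about binding elsewhere.

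The Car3 cluster, with the highest Ptch1 level, was compared directly with the Gdf10 cluster, the largest of the 3 clusters with low Ptch1. Because Ptch1 levels set this choice, the Ptch1 difference was given in advance. Genes that ran with or against Ptch1 over the clusters were likely to pass with it, so the counts below are a description only. In the Car3 over the Gdf10 cluster of the Tomato-negative library, Ptch1 was 17.7 times higher (15.3 to 20.5), Gli1 4.55 times (3.51 to 5.99), Gli2 1.90 times and Hhip 203 times (129 to 343). Gli3 was 0.433 times, Boc 0.327 times and Gas1 0.0408 times the Gdf10 level. Of 8 members measured (at least 10 CPM in 1 of the groups and 20 UMIs in all), 4 passed 1.5-fold upward and 3 downward, with Smo between, against 14.9% and 11.5% of all genes. The same 4 and 3 genes passed in the Tomato-positive library, where the background was 20.4% and 21.5% and the Car3 cluster had 31 cells. There Ptch1 was 12.7 times, Gli1 2.58 times and Gas1 0.0258 times the Gdf10 level, the interval of Gli2 included 1 (0.666 to 3.63), and Hhip stood at 678 CPM against 0 UMIs in 134 cells.

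Stromal genes known to respond to Hedgehog ligands in gut, lung or bladder mesenchyme were listed separately. In the Tomato-negative library 13 of the 16 were measured in this comparison. By the same 1.5-fold bound 9 were higher in the Car3 cluster and 4 lower, against 14.9% and 11.5% of all genes. These counts too follow the choice of the clusters by Ptch1. The log2 ratios of the 13 had a median of 1.60 against 0.11 over all genes. Foxf1 and Foxf2, forkhead factors of visceral mesenchyme, were 10.6 and 25.3 times higher, and Foxl1, their relative in subepithelial cells, had 367 UMIs against 1. The growth factors Bmp5, Bmp4 and Wnt2 were 38.4, 4.55 and 13.3 times higher. The 4 lower genes were Osr2 (0.0175 times), Igf1 (0.0888 times), Bcl2 and Osr1. In the Tomato-positive library 8 of 11 measured genes were higher and 3 lower, against 20.4% and 21.5% of all genes, with a median of 1.92 against 0.04. Of the reception genes, Cdon, a co-receptor of the same family as Boc, was 0.0144 times and Gpc3, a glypican that competes for the ligand, 0.0509 times the Gdf10 level in the Tomato-negative library. Scube3, which helps release the ligand from the cells that make it, stood at 59.0 CPM against 0.766 CPM.

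The Car3 cluster also carried contractile markers. All 8 smooth muscle or mural markers were present in its Tomato-negative cells and summed to 1802 CPM, against 284 CPM in the Gdf10 cluster and 144 CPM over all other fibroblast-like cells. In its Tomato-positive cells they summed to 1710 CPM, with Cnn1, Rgs5, Des and Notch3 at 0. The 7 fibroblast markers summed to 36325 CPM in the Tomato-negative Car3 cluster and 48981 CPM in the Gdf10 cluster. The part of these markers in the levels above was not tested.

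**Figure D3:**
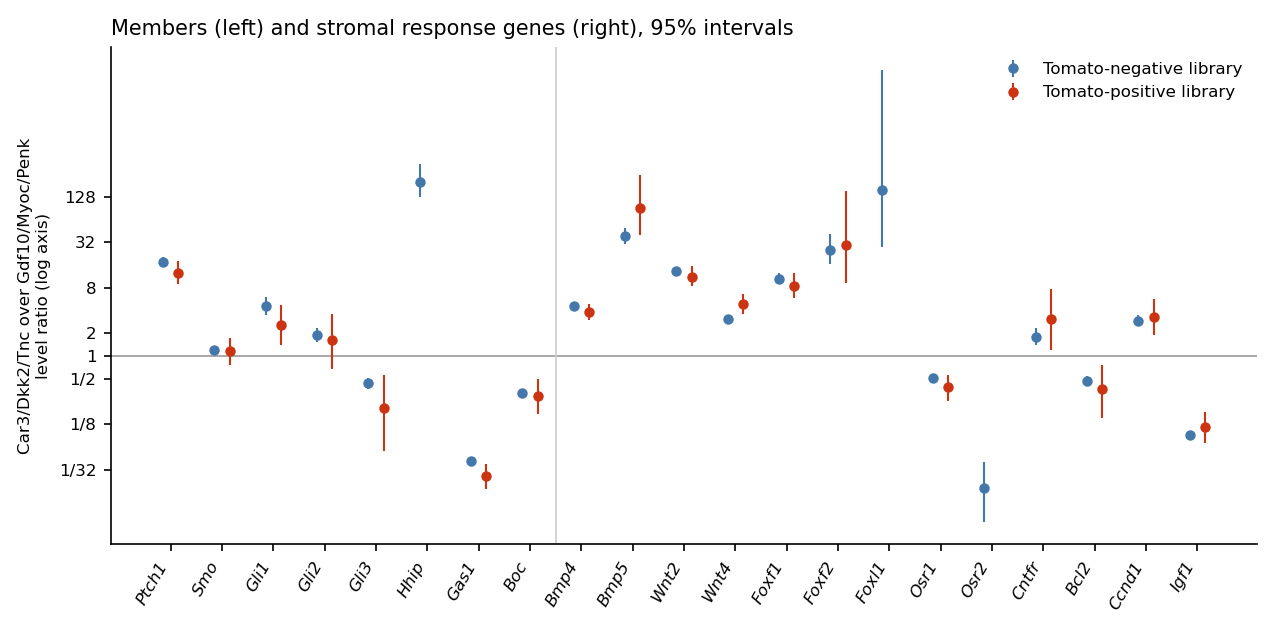
Ratio of the level in the Car3/Dkk2/Tnc cluster to that in the Gdf10/Myoc/Penk cluster (log axis) for 8 of the 9 genes (left) and the stromal response genes (right) in both libraries, with 95% intervals. Ptch1, Gli1 and Hhip lie above 1 and Gas1 and Boc below 1; Hhip and Foxl1 have no Tomato-positive point because the Gdf10 cluster had 0 UMIs, and Osr2 none because it was below the limit for measurement.

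The size of the peak differed between ways of dividing the cells. When the fibroblast-like cells were clustered again on their own, a Car3 cluster of 435 Tomato-negative cells held 851 CPM of Hhip and 746 CPM of Ptch1. A neighbouring cluster of Cck, Wnt2 and Cxcl14 with 792 cells then held 229 and 293 CPM. With the stricter cell filter the Car3 cluster shrank to 123 cells with 1138 and 1083 CPM, and its neighbour of 956 cells held 419 and 404 CPM. In each of these divisions Hhip and Ptch1 were highest in the cluster with the Car3 markers.

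Between the libraries, fibroblast-like cells differed in 3 of the 8 measured members by 1.5-fold or more. Ptch1 was 259 CPM in the Tomato-negative and 160 CPM in the Tomato-positive library, a ratio of 0.616 (0.581 to 0.653), and Hhip was 145 and 39.3 CPM, a ratio of 0.271 (0.241 to 0.304). Gas1 went the other way, 624 and 1130 CPM, a ratio of 1.81 (1.77 to 1.85). Thus 1 gene was higher and 2 were lower, where 2.03% and 2.32% of the 9018 genes measured were. Boc stood just inside the bound, at 40.5 and 59.7 CPM (ratio 1.47, 1.33 to 1.63). The transducer and the factors were closer to 1: Smo 68.1 and 63.6 CPM (0.934), Gli1 30.8 and 29.2 CPM (0.946), Gli2 24.5 and 21.0 CPM (0.859) and Gli3 23.3 and 28.6 CPM (1.23). Gli1, the target most often read as pathway output, therefore differed by less than its counting error (0.820 to 1.09), unlike Ptch1 and Hhip. Without shared barcodes Ptch1 (0.666) fell just short of the bound on the log2 scale with 1 CPM added, and Hhip was 0.212 times.

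The 2 libraries held the fibroblast clusters in different shares. The Car3 cluster made up 18.9% of Tomato-negative fibroblast-like cells (1011 cells) and 3.80% of Tomato-positive ones (31 cells). Ednrb/Cck/Chodl made up 21.4% and 6.5%. The 3 clusters with the most Gas1 were larger in the Tomato-positive library: Gdf10/Myoc/Penk had 11.1% and 16.4%, Cxcl12/Dner/Kcnn3 3.19% and 15.0%, and the Angptl7 cluster 3.1% and 6.99%. Apoe/C7/Cxcl12, with 239 CPM of Ptch1, was larger too (14.9% and 27.7%), while the Dpp4 cluster, low in targets, was smaller (3.62% and 1.72%). Pi16/Scara5 had 14.9% and 14.6%, and Bglap2/Pex5l/Stmn2 8.93% and 7.24%. Of all cells in the Car3 cluster 2.98% were Tomato-positive, and of Cxcl12/Dner/Kcnn3 cells 41.6%. These shares are shares of sorted cells, and the Tomato gate is the sort that separates the libraries.

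**Figure D4:**
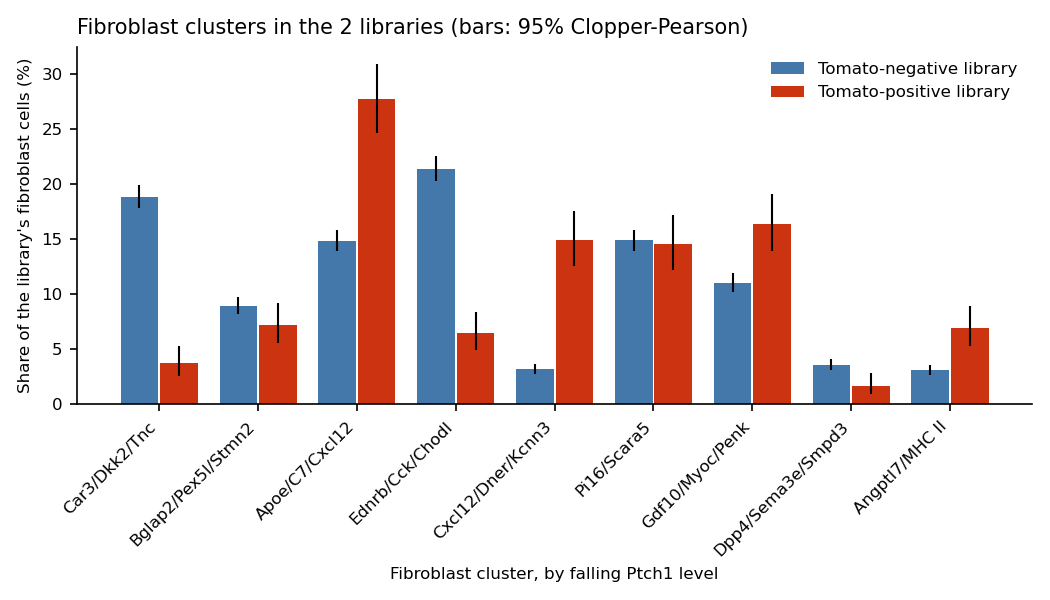
Share of each library's fibroblast-like cells in each of the 9 clusters, in percent, with 95% Clopper-Pearson intervals, ordered by falling Ptch1 level. The Car3/Dkk2/Tnc cluster makes up 18.9% of Tomato-negative and 3.80% of Tomato-positive cells, and Cxcl12/Dner/Kcnn3 3.19% and 15.0%.

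The library ratios of Ptch1, Hhip and Gas1 were then set beside the ratio that the cluster mix alone would give. The mix was taken here as each cluster's share of the fibroblast UMIs, not as the shares of cells given above. Tomato-negative cluster levels weighted by the Tomato-positive mix gave 177 CPM of Ptch1, 39.4 CPM of Hhip and 1143 CPM of Gas1, ratios of 0.681, 0.271 and 1.83 to the Tomato-negative level. The observed Tomato-positive level divided by the weighted one was 0.906 for Ptch1, 0.998 for Hhip and 0.989 for Gas1. The Hhip value includes 3 Tomato-positive Car3 cells with a shared barcode. Without shared barcodes the observed Hhip level was 31.0 CPM, 0.212 times the Tomato-negative level, and the weighted level was not computed again. For Gli1 the mix alone gave 0.833 and the remainder was 1.13; for Boc they were 1.33 and 1.11. An average that counts each of 8 clusters equally gave log2 ratios of -0.22 for Ptch1, -0.94 for Hhip and -0.11 for Gas1, so the sign of Gas1 turned. Some of these cluster ratios rest on few Tomato-positive UMIs. For Hhip there were 0 in the Gdf10 cluster and 1 in each of the Pi16/Scara5 and Angptl7 clusters. Ptch1 had 6 in the Angptl7 cluster, and Gas1 had 30 in the Car3 and 49 in the Ednrb cluster. Without the Car3 cluster, Ptch1 was 176 and 144 CPM (0.816), Hhip 17.6 and 5.16 CPM (0.294) and Gas1 782 and 1186 CPM (1.52); 1 gene then passed upward and 1 downward, against 1.4% and 0.985% of 8935 genes.

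**Figure D5:**
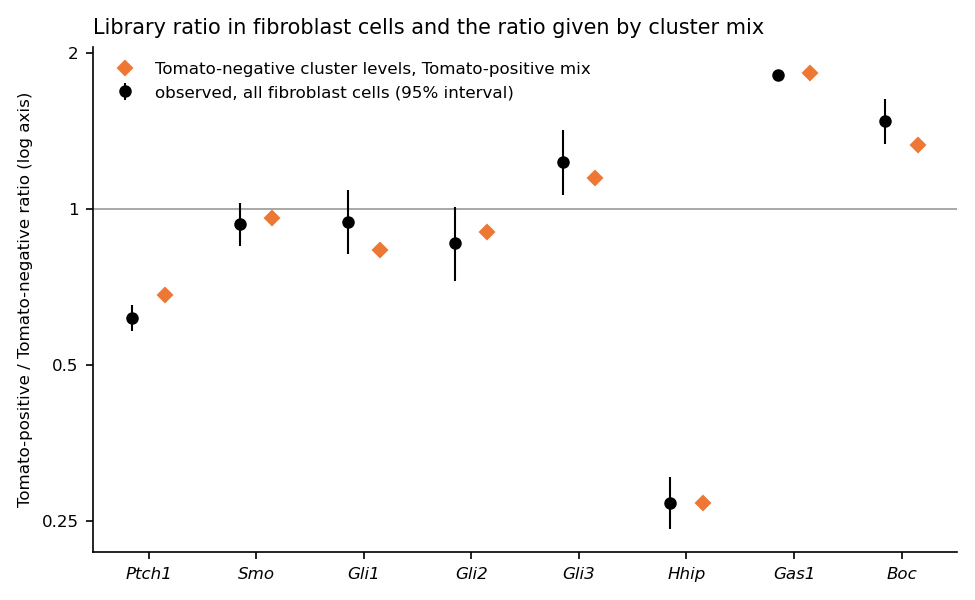
Tomato-positive over Tomato-negative ratio of 8 of the 9 genes in fibroblast-like cells (black, 95% intervals, log axis). Beside it, in orange, is the ratio given by Tomato-negative cluster levels in the Tomato-positive cluster mix, weighted by UMIs. For Hhip both are 0.271, for Gas1 they are 1.81 and 1.83, and for Ptch1 0.616 and 0.681. Without shared barcodes the observed Hhip ratio is 0.212, which is not drawn.

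Within clusters, the Gas1 ratios lay much closer to 1 than the 1.81 of the whole class, although several differed from 1 beyond counting error. Gas1 in Tomato-positive cells was 0.850 times the Tomato-negative level in Cxcl12/Dner/Kcnn3 (0.805 to 0.898, 3609 and 2006 UMIs), 1.10 times in Gdf10 (1.06 to 1.14) and 1.15 times in Apoe/C7/Cxcl12 cells (1.06 to 1.24). It was 0.915 times in the Angptl7 cluster and 0.697 times in the Car3 cluster (30 UMIs), with intervals that included 1 once shared barcodes were left out. In the Ednrb cluster Boc was 1.65 times as high (1.05 to 2.47) from 25 UMIs, and 1.59 times (0.991 to 2.42) without shared barcodes.

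Ptch1 and Hhip also differed within clusters. In the Car3 cluster, Tomato-positive cells held 0.876 times the Tomato-negative Ptch1 level (0.752 to 1.01) and 1.21 times the Hhip level (1.07 to 1.37). The 3 Tomato-positive Car3 cells with a barcode shared between the libraries decided the latter: without them 172 of the 267 Hhip UMIs were left and the ratio was 0.955 (0.817 to 1.11), while that of Ptch1 was 0.828 (0.696 to 0.978). In the Ednrb cluster Hhip was 49.8 and 20.2 CPM (0.406, 0.202 to 0.732), the latter from 11 UMIs. Hhip was also lower in Tomato-positive Bglap2/Pex5l/Stmn2 cells (0.297, 0.0603 to 0.894) and Cxcl12/Dner/Kcnn3 cells (0.412, 0.151 to 0.974), from 3 and 7 UMIs. In Pi16/Scara5 cells it was 0.15 times (0.00374 to 0.876), from 1 UMI. In Apoe/C7/Cxcl12 cells it was 0.777 times from 15 UMIs, with an interval that included 1 (0.417 to 1.35). Hhip in superficial urothelial-like cells differed in the same direction, 1.09 CPM in Tomato-negative and 0.0640 CPM in Tomato-positive cells, and the part of free RNA was not tested. Ptch1 was lower in Tomato-positive Pi16/Scara5 cells (0.690, 0.585 to 0.809, from 1881 and 166 UMIs) and Cxcl12/Dner/Kcnn3 cells (0.765, 0.621 to 0.939).

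In the Gdf10 cluster Gli1 and Boc were higher in Tomato-positive cells. Gli1 was 9.65 CPM in Tomato-negative and 21.7 CPM in Tomato-positive cells, a ratio of 2.24 (1.36 to 3.60) from 63 and 26 UMIs, and Boc was 99.9 and 145 CPM, a ratio of 1.45 (1.22 to 1.72). Ptch1 was 30.0 and 36.7 CPM (1.22), with an interval that included 1. The same held for Smo (1.14), Gli2 (0.948) and Gli3 (1.18). Hhip had 18 UMIs in Tomato-negative and 0 in Tomato-positive cells, with a ratio of up to 1.24. In this cluster 5.07% of 9121 genes were at least 1.5 times higher and 4.51% lower in Tomato-positive cells. It held 96 Tomato-negative and 42 Tomato-positive cells with a shared barcode, the most of any fibroblast cluster. Without them the ratios were 2.73 for Gli1 (1.60 to 4.51), 1.73 for Boc (1.43 to 2.07), 1.70 for Ptch1 (1.19 to 2.39) and 1.33 for Smo (1.02 to 1.70).

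The other genes of the pathway gave the following counts between the libraries in fibroblast-like cells. Of the 16 stromal response genes 10 were measured, 0 higher and 3 lower in Tomato-positive cells (Bmp5 0.273 times, Foxf2 0.469 times and Wnt2 0.595 times), where 2.03% of all genes were higher and 2.32% lower. The log2 ratios of the 10 had a median of -0.40 against -0.01 over all genes. Foxf1 and Bmp4 were both 0.76 times, and the highest were Igf1 at 1.39 and Wnt4 at 1.19 times. Without the Car3 cluster 2 of the 10, Bmp5 and Wnt2, stayed beyond the bound, where 0.985% of all genes were lower, and the median was 0.00. Of 14 reception genes 10 were measured, with 2 higher, Gpc3 at 111 and 195 CPM (1.76) and Cdon at 24.9 and 40.6 CPM (1.63), and 0 lower, against the same 2.03% and 2.32%; without the Car3 cluster neither passed. Sufu, which restrains the Gli factors, and Gpr161, a ciliary receptor that keeps the pathway off, were the lowest at 0.897 and 0.894 times.

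Of 7 genes of ligand supply 3 were measured, 0 higher and 1, Scube3, lower at 15.9 and 4.00 CPM (0.251), against 2.03% and 2.32% of all genes. Scube1 was 1.48 times the Tomato-negative level. Without the Car3 cluster 2 genes of ligand supply were measured, 0 higher and 0 lower, against 1.4% and 0.985%. Of 10 primary cilium genes 8 were measured, and of 8 genes of Gli turnover 7, and none of either list passed 1.5-fold. Among the 6 genes known to follow Wnt or BMP signals from stroma to urothelium, Lef1, Axin2 and Lgr5 were lower in Tomato-positive fibroblast-like cells (0.274, 0.544 and 0.555 times), against 2.32% of all genes. The median log2 ratio of the 6 was -0.56, against -0.01. Without the Car3 cluster 5 were measured and 1, Axin2 (0.617 times), was lower, against 0.985%; the median was then -0.25. The 8 genes known to be induced by tissue dissociation were all within the bound.

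Beyond fibroblast-like cells, mesothelial-like cells stood out for Gas1 and Smo. They held 1623 and 1523 CPM of Gas1 in the 2 libraries, detected in 99.6% and 98.7% of cells, and 110 and 112 CPM of Smo. Targets were low in them, with 30.6 and 29.6 CPM of Ptch1 and 5.28 and 5.80 CPM of Gli1. Of the 158 Tomato-positive mesothelial-like cells 95 had a barcode of their own; with those alone Ptch1 was 44.7 CPM, 1.47 times the Tomato-negative level (1.09 to 1.94), and Gli1 9.93 CPM from 12 UMIs (1.90, 0.944 to 3.48). Cdon, Disp1 (which exports the ligand) and Lrp2 (an endocytic receptor that binds it) were at their highest level of the 6 large classes there, 125, 40.5 and 49.3 CPM in the Tomato-negative library. Lymphatic endothelial-like cells had 97.2 and 64.5 CPM of Ptch1 with 0 UMIs of Gli2 and Gli3. The 49 Schwann-like cells of the Tomato-negative library had 148 CPM of Ptch1 (107 to 200, 43 UMIs) and 24.1 CPM of Gli1, whose 7 UMIs came from 2 cells.

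The genes most like 3 members were named by the highest Pearson correlation of log2 levels over 29 combinations of class or fibroblast cluster and library, among 10293 genes. For Shh they were Krt15, Sptssb, Wfdc2, Ly6d and Tmem45b, at 0.98 to 0.99. For Gli1 they were Adk, Tbx5, Wnt2, Prdm6 and Ifitm1, at 0.91 to 0.93. For Hhip they were Bmp5, Robo2, Cck, Col11a1 and Foxf2, at 0.83 to 0.85. Wnt2, Bmp5 and Foxf2 were on the list of stromal response genes. Krt15 was also a marker of the basal class, and Cck and Wnt2 were in a marker list for fibroblast clusters. Krt15 and Cck were not held out of the clustering, so their likeness over these units may be partly built in.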

How the data were processed

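The authors deposited a gene by barcode matrix of raw UMI counts for each library; per the submitters' processing notes, reads were processed with Cell Ranger 7.0.0 on mm10, while the deposited matrix headers name software 3.0.2. The smallest total of a barcode was 500 UMIs, so some filtering preceded deposit. The 9 members and all gene lists were chosen with earlier results of these data known.

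Cells with at least 1000 UMIs, 500 genes and under 15% mitochondrial UMIs were kept, and doublets predicted within each library with Scrublet (6.51% of Tomato-negative, 0.528% of Tomato-positive cells) were removed. Both libraries were clustered together with scanpy 1.11.5 (2000 variable genes, 30 components, 15 neighbours, Leiden resolution 1) without the members, the other Hedgehog genes, tdTomato and Cdkn2a. The 24 clusters were named from marker lists; a name needed at least 3 detected markers. Of cells that could be gated one by one on their markers, 93.2% fell in the same class. Fibroblast clusters are the 9 clusters within that class.

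For each class and library, the raw counts of its cells were added up and scaled to a total of 1000000 (CPM). Levels carry exact Poisson intervals, shares Clopper-Pearson intervals and ratios exact conditional binomial intervals, all at 95% and for counting error only. A gene counted as measured when it reached 10 CPM in 1 group and 20 UMIs in both together. Log2 ratios were taken after adding 1 CPM; a 1.5-fold bound on these was used to count genes. With 1 library per group there was no test and no p-value. The intervals and ratios were tested on simulated independent counts. UMIs that gather in a few cells were not simulated, so the test does not show that the intervals hold for such genes. TMM factors from edgeR 4.0.16 were an alternative scaling. The members and at most 4 genes per list by extreme ratio, or genes highest in the class their role concerns, were named; list genes named in the comparison of the Car3 and Gdf10 clusters were chosen after their values were seen. Coordinates are from GENCODE on GRCm38, and promoter sequences from RefSeq on GRCm38.p6.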

Additional observations from a re-analysis of the deposited data

Results flagged for a closer look

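Gas1 was the member whose library ratio passed 1.5-fold in both directions, beyond counting error, among the 6 large classes. Tomato-positive over Tomato-negative, it was 4.48 in basal urothelial-like and 1.81 in fibroblast-like cells, but 0.608 in superficial urothelial-like, 0.382 in endothelial-like and 0.315 in lymphatic endothelial-like cells. Shh also differed in direction, at 0.855 in basal and 2.18 in endothelial-like cells, the latter 1.20 (0.777 to 1.80) without barcodes found in both libraries. The difference between the classes was not tested, since each class has 1 library per group.

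In basal cells the levels were 29.7 and 133 CPM. Of these Gas1 UMIs, 50.7% and 92.2% lay in 14 Tomato-negative and 12 Tomato-positive cells that each held at least 50 UMIs of fibroblast markers, 4 of the latter with a barcode found in both libraries. Without such cells the levels were 15.4 and 12.5 CPM. In the superficial, endothelial and lymphatic classes the Tomato-negative levels were 12.4, 32.4 and 28.2 CPM and the Tomato-positive levels 7.55, 12.4 and 8.90 CPM, far below the 624 and 1130 CPM of fibroblast-like cells; the part of free RNA in them was not tested.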

How the results depend on the processing

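No paired analysis was possible because each group is 1 library, and for the same reason no replicate could be left out. Counting error is the error given throughout; variation between animals was not measured, and small clusters (31 Tomato-positive Car3-cluster cells) and low counts limit the rest. Of 114 alternatives to 16 main results, 52 stayed within counting error, 61 moved beyond it and 1 turned the sign of a called ratio (Gas1); of 66 alternatives to 7 results on other members, 59 stayed and 7 moved. Among log2 ratios, 4 of 58 and 7 of 66 lay on the other side of 0: besides Gas1, Shh superficial over basal in Tomato-positive cells (below), Gli1 between fibroblast-like cells under 5 settings, and Smo there and Shh in superficial cells under 1 each. The causes were not tested. For log2 ratios between libraries in fibroblast-like cells, Ptch1 (-0.69) was -0.61 with the stricter filter, -0.60 with doublets kept and with Leiden resolution 0.5, -0.54 with equal weight per cell, -0.58 without shared barcodes, -0.22 as the mean within clusters and -0.29 without the Car3 cluster. Hhip (-1.86) was -2.20, -0.94 and -1.59 under the last 3, and Gas1 (0.86) was 0.79, -0.11 and 0.60; Gas1 was 0.91, 0.92 and 0.91 under the first 3 and 0.82 with the marker gate. The count of higher members was 2 with the stricter filter, doublets kept or resolution 0.5, where Boc joined Gas1, and that of lower members was 1 without shared barcodes or without the Car3 cluster, where Ptch1 dropped out; both of the latter were chosen after seeing the data. Shh superficial over basal (log2 -0.12, Tomato-negative) was -0.19, -0.22, -0.17 and -0.19 with the stricter filter, doublets kept, resolution 0.5 and the gate, and in the Tomato-positive library (0.075) -0.093, -0.095 and -0.21 with the filter, doublets and gate. For the Car3 cluster over other fibroblast-like cells, under those 4 and with fibroblasts clustered again (added after seeing the data), Hhip (4.92) was 3.35, 4.09, 4.17, 3.48 and 3.99, Ptch1 (1.59) was 2.19, 1.66, 1.68, 1.80 and 1.93, and Gas1 (-2.83) was -4.23, -2.53 and -2.71 under the first 3 and -2.98 when clustered again. Basal Shh was 259, 256 and 257 CPM (247) with the filter, resolution 0.5 and gate, and in Tomato-positive cells 236, 235 and 248 CPM (211) with the filter, doublets and gate. Its detection (98.0% and 97.6%) was 99.1% and 100% with the filter, 89.6% and 83.0% with the gate and 38.7% and 33.1% thinned. Fibroblast Hhip (145 CPM) was 152, 154, 152 and 141 CPM under those 4 settings and 112 CPM with equal weight, and in Tomato-positive cells (39.3 CPM) 28.2 CPM with equal weight and 31.0 CPM without shared barcodes.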

Other observations

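Cdkn2a, the gene of the p16 protein whose promoter drives the Cre, was unevenly spread over the fibroblast clusters that differ in Hedgehog targets. In the Tomato-negative library the Car3/Dkk2/Tnc cluster, which had the highest Ptch1 and Hhip levels, held 29.4 CPM of Cdkn2a, and the Angptl7 cluster, which had the lowest Ptch1 level, held 27.5 CPM. The Ednrb/Cck/Chodl cluster had 1 Cdkn2a UMI in 1149 cells. Cdkn2a was detected in 10.6% of Tomato-negative Car3-cluster cells, although only 2.98% of that cluster's cells came from the Tomato-positive library.

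Between the libraries, Cdkn2a was 29.4 and 30.5 CPM in the Car3 cluster (ratio 1.04, 0.531 to 1.83), 27.5 and 53.2 CPM in the Angptl7 cluster (1.93, 1.31 to 2.82) and 5.67 and 23.3 CPM in the Gdf10 cluster (4.12, 2.43 to 6.91). Over all fibroblast-like cells it was 9.17 and 12.1 CPM, and without the Car3 cluster 2.95 and 11.1 CPM (3.78, 2.85 to 4.98). The Cdkn2a locus also encodes a second protein from a shared 3′ end, so these counts are not those of p16 alone.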
